A study of Mus musculus with 9 samples.

Results

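The p53 target genes described here are 32 mouse genes, chosen by symbol as known transcriptional targets of the tumour suppressor p53. The choice was made with earlier results of these data known. The genes were found on the array through the RefSeq accession of each probe, and make up 32 of the 20660 genes that could be named. All 32 were well above background on all 9 arrays and were among the 14034 genes tested. Total RNA came from organoids of mouse colon, which are small hollow structures of gut epithelium kept in culture. One group of 3 arrays held untreated organoids (0 weeks), 3 arrays held organoids treated for 12 weeks with reagents called inflammatory, and 3 held organoids treated for 60 weeks. The labels name neither the reagents nor the strain, sex or age of the mice, and do not say whether replicates came from separate animals or cultures. The p-values therefore measure only the spread between these samples, which may be technical. No array of organoids left untreated for 12 or 60 weeks was analysed here, so treatment and time in culture cannot be told apart.

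The p53 protein, encoded by Trp53, is stabilised when DNA is damaged or when oncogenes or other stresses act on a cell, and binds DNA as a tetramer at a pair of short half-sites. Its targets halt the cell cycle, repair DNA, adjust metabolism or start cell death, and some of them, first of all the ubiquitin ligase Mdm2, bring p53 itself back down. In the colon, mutation of the p53 gene is common in carcinomas, both sporadic ones and those that arise in chronically inflamed mucosa. Many of its targets also answer to other transcription factors.

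A level below is a log2 intensity relative to the 75th percentile of its array, so that a probe at 0 was as bright as that percentile, and levels of different probes are not set against each other. A change is a difference of group means on this log2 scale ± SE, and a gene is called, or said to rise or fall, when limma's Benjamini-Hochberg adjusted p over all tested genes is under 0.05. The share of probes well above background ran from 49.2% to 52.7% per array, and no spot was saturated. Replicate 2 of 12 weeks stood apart: it correlated across genes at 0.978 and 0.977 with replicates 1 and 3, which correlated at 0.992 with each other, against 0.994 to 0.996 among the 0 weeks arrays and 0.990 to 0.994 among the 60 weeks arrays. In that replicate 26 of the 32 p53 targets lay above the mean of the other replicates of 12 weeks, by a median of 0.29, where 53.5% of all genes lay above, by a median of 0.04. All 10 epithelial markers were well above background on all 9 arrays. Of 8 fibroblast markers, 5 (Dcn, Lum, Pdgfra, Pdgfrb and Thy1) were above background on no array, as were the leukocyte markers Ptprc and Cd79a and the endothelial markers Cdh5 and Tek. Other markers of these lists were well above background on all 9 arrays. They were Cd3e, Csf1r and Itgam of leukocytes, Pecam1 and Kdr of endothelium and Col1a2 of fibroblasts. The summed linear level of the leukocyte markers, in units of the array's 75th percentile, ran from 16.7 to 23.4 at 0 weeks, 24.4 to 48.0 at 12 weeks and 27.3 to 34.4 at 60 weeks, and its part in the changes was not tested. In bulk RNA, fewer cells of a type and less RNA per cell cannot be told apart.

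The p53 targets did not move as a block. At 12 against 0 weeks 18 of the 32 genes were called, 9 of them higher and 9 lower, where 41.8% of all genes tested were called (19.1% higher and 22.7% lower). At 60 against 0 weeks 14 were called, 12 higher and 2 lower, where 32.8% of all genes were called (16.7% higher and 16.1% lower). From 12 to 60 weeks the direction was one-sided: 13 were called higher at 60 weeks and 0 lower, where 20.7% and 17.6% of all genes were called in these directions, 38.3% in all. Their share of calls lay near that of all genes in this last comparison (40.6%) and above it in the others (56.2% and 43.8%). The median change of the 32 was -0.03 at 12 against 0 weeks, 0.16 for 60 against 0 weeks, and for 60 against 12 weeks it was 0.27, beside -0.06, -0.04 and 0.02 over all genes tested; the first was 0.009 with normexp background correction and 0.15 with quantile normalization. The arrays of the groups compared did not overlap for 19 of the 32 at 12 against 0 weeks (10 higher, 9 lower), where 54.6% of all genes did not (24.9% higher, 29.7% lower). At 60 against 0 weeks they did not for 21 (18 higher, 3 lower), where 56.5% of all genes did not (27.6% higher, 28.9% lower), and at 60 against 12 weeks for 15 (15 higher, 0 lower), where 47.3% did not (25.4% higher, 21.9% lower). Changes were small: only 2 of the 32 were called at 2-fold or more in each comparison, where 14.8%, 11.6% and 12.7% of all genes were. Without replicate 2 of 12 weeks, 20 were called at 12 against 0 weeks (8 higher, 12 lower), 16 at 60 against 0 weeks and 16 at 60 against 12 weeks, where the share of all genes called was also higher, at 52.8%, 42.9% and 50.4%. With quantile normalization the split was 12 higher and 8 lower at 12 against 0 weeks and 8 higher and 1 lower at 60 against 12 weeks. Of all genes 42.7% and 38.2% were called in these comparisons with that setting. The 0 weeks arrays enter both comparisons against 0 weeks, and the 12 weeks arrays enter both others, so the comparisons are not independent of each other.

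**Figure D1:**
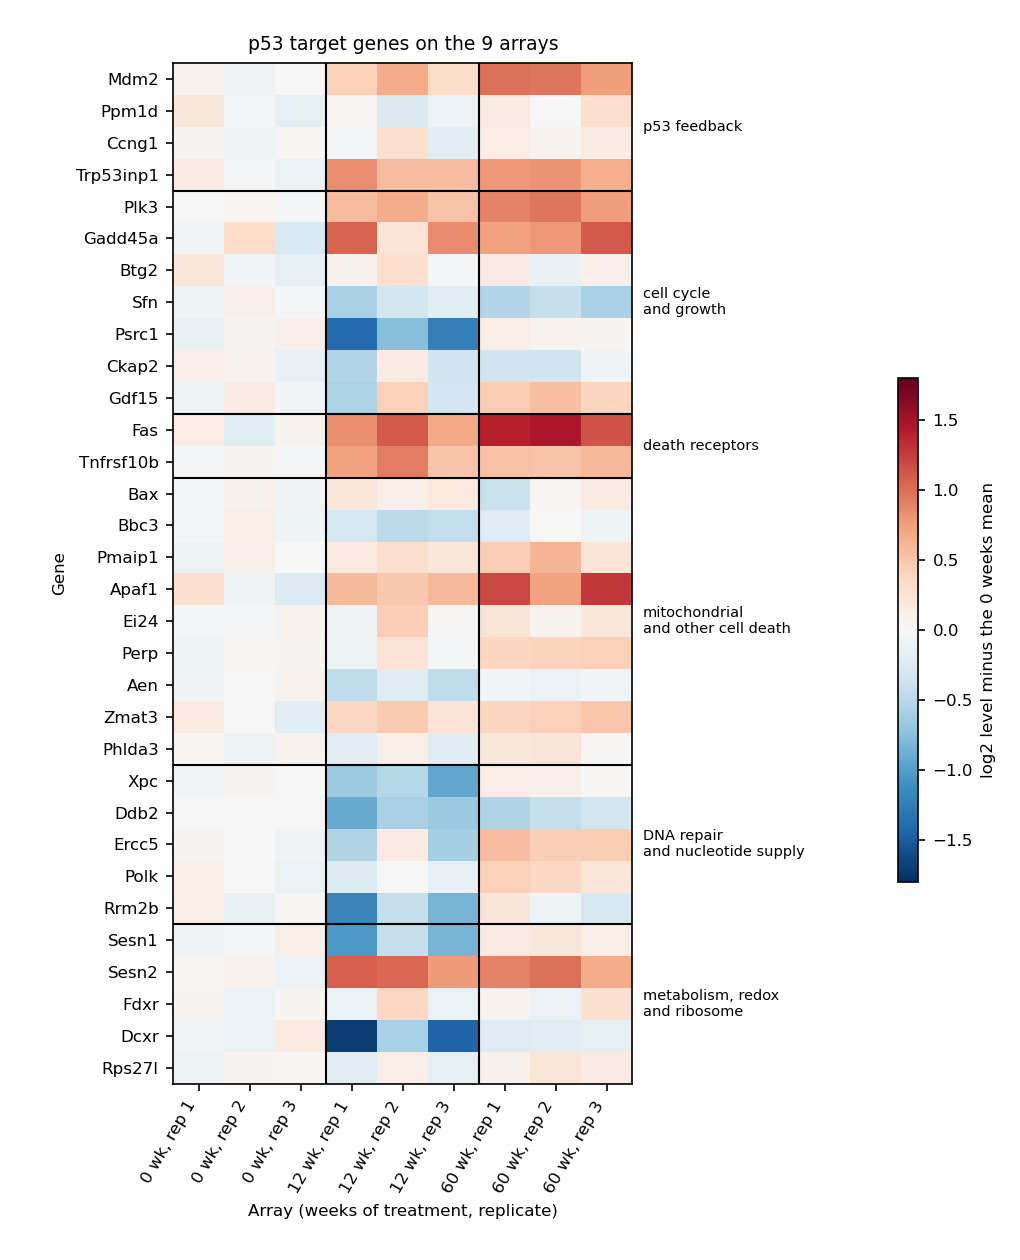
Log2 level of each p53 target on each of the 9 arrays minus its mean at 0 weeks (colour, red higher and blue lower), with genes grouped by role and arrays by weeks of treatment. Mdm2, Trp53inp1, Plk3, Fas, Tnfrsf10b and Sesn2 are red on all arrays of 12 and 60 weeks, while Psrc1, Xpc, Rrm2b, Sesn1 and Dcxr are blue on the 12 weeks arrays, less so in replicate 2.

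By their course the genes fell into a few patterns. Against 0 weeks, 9 were higher at both 12 and 60 weeks (Mdm2, Trp53inp1, Plk3, Gadd45a, Fas, Tnfrsf10b, Apaf1, Zmat3 and Sesn2), which is 28.1% of the 32 where 8.69% of all genes had this pattern. Another 7 were lower at 12 weeks and higher at 60 than at 12 weeks (Psrc1, Bbc3, Aen, Xpc, Rrm2b, Sesn1 and Dcxr), 21.9% where 11.1% of all genes did so. The opposite course, higher at 12 weeks and lower at 60 than at 12 weeks, was seen in 0 of the 32 and in 9.16% of all genes. Higher at 60 weeks than at both earlier times were 5 genes (Mdm2, Plk3, Fas, Perp and Polk; 15.6%, where 7.23% of all genes were), and 3 of them, Mdm2, Plk3 and Fas, were also higher at 12 than at 0 weeks, a stepwise rise called in 9.38% of the 32 and in 1.37% of all genes. Relative to the medians of their chromosomes, Mdm2 and Fas were not called at 60 against 12 weeks. Plk3 was then not called at 12 against 0 weeks. Only Sfn and Ddb2 were lower at both 12 and 60 weeks than at 0 weeks (6.25%, where 8.49% of all genes were). No call in any comparison was made for 10 genes, Ppm1d, Ccng1, Btg2, Ckap2, Gdf15, Bax, Ei24, Phlda3, Fdxr and Rps27l (31.2%, where 38.1% of all genes had none). By limma's F test 22 of the 32 (68.8%) differed among the 3 groups, where 56.7% of all genes did. As the 32 genes were chosen with earlier results of these data known, these shares are descriptions only.

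**Figure D2:**
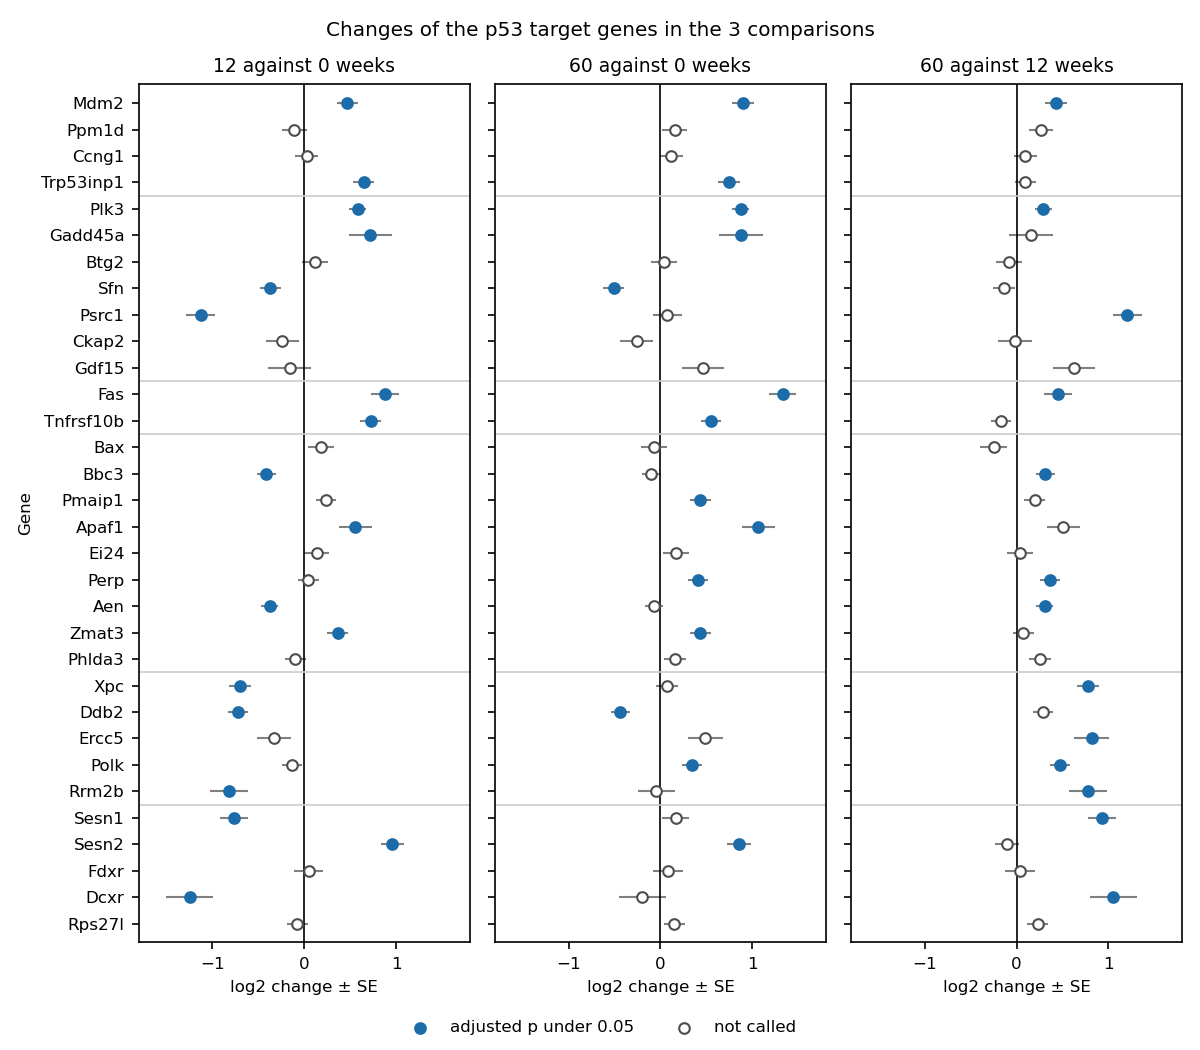
Log2 change ± SE of each p53 target at 12 against 0, 60 against 0 and 60 against 12 weeks, from the fit over all 9 arrays, with called genes as filled points. At 60 against 12 weeks all 13 filled points lie to the right of 0, while at 12 against 0 weeks 9 lie on each side.

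Promoter sequence was available in a RefSeq table (build GRCm38.p6, 250 bases before to 50 after each start) for 24 of the 32 genes, in 32 windows; Pmaip1, Zmat3, Trp53inp1, Tnfrsf10b, Ddb2, Rrm2b, Perp and Xpc had no entry. A p53 half-site, searched on both strands as its 10-base consensus, was present in 12 of these windows, of 11 genes (37.5%), and in 8.36% of all 32851 windows of the table. A pair of half-sites, at most 13 bases apart and with at most 2 mismatches in all, was present in 4 windows (12.5%; Ckap2, Bax, Sesn1 and Rps27l) and in 2.12% of all windows. Both counts are of letters in these windows and say nothing of binding, and p53 sites in introns or farther upstream lie outside them. The 5 windows below are shown because they span the courses seen in the data: Mdm2 and Gadd45a rose at both times, Sesn1 fell at 12 weeks, and Bax and Rps27l, which hold a pair, were not called. Capitals mark half-sites, including the imperfect half-site of a pair, and each sequence is given 5′ to 3′ on the strand of the gene. The positions are chr10:117710709-117711008 (minus strand) for Mdm2, chr6:67037358-67037657 (minus) for Gadd45a, chr10:41887189-41887488 (plus) for Sesn1, chr7:45466849-45467148 (minus) for Bax and chr9:66946163-66946462 (plus) for Rps27l.
Mdm2: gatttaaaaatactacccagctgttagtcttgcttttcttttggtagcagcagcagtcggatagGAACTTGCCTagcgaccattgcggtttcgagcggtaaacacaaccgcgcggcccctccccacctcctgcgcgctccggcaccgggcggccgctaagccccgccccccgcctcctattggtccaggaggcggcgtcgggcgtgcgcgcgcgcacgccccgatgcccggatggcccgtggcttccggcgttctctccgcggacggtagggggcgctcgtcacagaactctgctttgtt
Gadd45a: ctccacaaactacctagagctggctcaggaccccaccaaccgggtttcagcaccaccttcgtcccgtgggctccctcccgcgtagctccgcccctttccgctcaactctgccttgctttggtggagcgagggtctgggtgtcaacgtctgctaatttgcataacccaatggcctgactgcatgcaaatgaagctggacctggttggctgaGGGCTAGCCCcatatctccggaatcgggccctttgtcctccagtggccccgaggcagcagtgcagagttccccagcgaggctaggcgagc
Sesn1: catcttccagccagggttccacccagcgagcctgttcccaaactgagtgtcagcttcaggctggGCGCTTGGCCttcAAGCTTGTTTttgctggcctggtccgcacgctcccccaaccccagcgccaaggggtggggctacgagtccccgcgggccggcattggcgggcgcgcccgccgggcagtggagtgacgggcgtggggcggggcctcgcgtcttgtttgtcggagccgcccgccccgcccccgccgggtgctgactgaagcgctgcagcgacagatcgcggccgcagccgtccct
Bax: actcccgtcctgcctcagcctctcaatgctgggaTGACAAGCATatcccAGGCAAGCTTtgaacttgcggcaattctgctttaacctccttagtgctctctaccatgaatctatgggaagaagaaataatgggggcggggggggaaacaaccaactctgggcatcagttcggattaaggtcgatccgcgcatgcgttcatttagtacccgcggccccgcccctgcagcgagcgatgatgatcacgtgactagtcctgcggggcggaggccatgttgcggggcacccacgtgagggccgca
Rps27l: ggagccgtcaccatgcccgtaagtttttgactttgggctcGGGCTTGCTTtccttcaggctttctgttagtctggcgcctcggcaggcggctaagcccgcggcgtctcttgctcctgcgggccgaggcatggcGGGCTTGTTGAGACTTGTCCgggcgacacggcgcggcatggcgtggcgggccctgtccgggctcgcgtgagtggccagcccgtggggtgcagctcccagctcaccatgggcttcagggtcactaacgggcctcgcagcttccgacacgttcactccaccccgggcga

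In the pair of Sesn1 the half-sites are 3 bases apart and in that of Bax 5, while in Rps27l they adjoin (0 bases) and a further half-site lies upstream. Of the 11 genes with a half-site in a window, Mdm2, Gadd45a, Aen, Polk and Sesn1 were called in some comparison. Ppm1d, Ccng1, Ckap2, Bax, Ei24 and Rps27l were called in none. Among all target genes described here 31.2% were called in no comparison, and among all genes tested 38.1%.

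Among the feedback genes, Mdm2 and Trp53inp1 rose and Ppm1d and Ccng1 were not called. Mdm2, the ubiquitin ligase that marks p53 for degradation, had levels of 5.78, 5.66 and 5.73 at 0 weeks, then 6.14, 6.39 and 6.06 at 12 weeks, then 6.71, 6.68 and 6.48 at 60 weeks. The 3 groups did not overlap, and each later group lay above the one before. Mdm2 rose by 0.47 ± 0.12 at 12 against 0 weeks (limma, adjusted p = 0.013), by 0.90 ± 0.12, or 1.87-fold, at 60 against 0 weeks (adjusted p = 0.000731) and by 0.43 ± 0.12 at 60 against 12 weeks (adjusted p = 0.0207). The step from 12 to 60 weeks lost its call without replicate 1 or 3 of 12 weeks or replicate 1 or 2 of 60 weeks (adjusted p = 0.0628, 0.0758, 0.0765 and 0.0634), and the step at 12 weeks lost it without replicate 2 of 0 weeks (adjusted p = 0.0522). With slide row as a block the 3 changes were 0.41, 0.89 and 0.47 (adjusted p = 0.0964, 0.0528 and 0.0528).

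Trp53inp1 encodes a nuclear protein that assists p53 in the stress response. Its levels were 3.37, 3.18 and 3.11 at 0 weeks, then 4.05, 3.78 and 3.77 at 12 weeks, then 3.99, 4.02 and 3.87 at 60 weeks. All 6 treated arrays lay above the 3 untreated ones, and the 12 and 60 weeks arrays overlapped. The gene rose by 0.65 ± 0.12 at 12 weeks (adjusted p = 0.00294) and by 0.74 ± 0.12 at 60 weeks (adjusted p = 0.0018), both against 0 weeks. Its second, dimmer probe changed by 0.52 (adjusted p over probes = 0.18) and 1.33 (adjusted p over probes = 0.00905) in these comparisons.

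Ccng1, cyclin G1, recruits a phosphatase to Mdm2 and had levels of 5.17, 5.06 and 5.14 at 0 weeks, then 5.11, 5.41 and 4.93 at 12 weeks, then 5.26, 5.19 and 5.28 at 60 weeks. Its changes were 0.02 ± 0.13 at 12 against 0 weeks, 0.12 ± 0.13 at 60 against 0 weeks, with 0.10 ± 0.13 at 60 against 12 weeks (adjusted p = 0.893, 0.508 and 0.589). Ppm1d encodes the phosphatase Wip1, which switches the damage response off, and changed by -0.11 ± 0.13, 0.16 ± 0.13 and 0.26 ± 0.13 (adjusted p = 0.539, 0.409 and 0.154). Its groups overlapped in all 3 comparisons.

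The genes of cell cycle and growth went in different directions: 2 of 7 rose and 2 fell at 12 against 0 weeks, 2 rose and 1 fell at 60 against 0 weeks, and 2 rose at 60 against 12 weeks. Calls in the 3 comparisons came to 57.1%, 42.9% and 28.6% of them, where 41.8%, 32.8% and 38.3% of all genes were called. Plk3, a kinase that acts in stress checkpoints, had levels of 1.74, 1.78 and 1.72 at 0 weeks, then 2.31, 2.41 and 2.26 at 12 weeks, then 2.65, 2.72 and 2.50 at 60 weeks. As for Mdm2, the 3 groups were separate and in the order of time. Plk3 rose by 0.58 ± 0.09 at 12 weeks (adjusted p = 0.0017) and by 0.87 ± 0.09, or 1.83-fold, at 60 weeks (adjusted p = 0.000249) against 0 weeks. Its smaller rise of 0.29 ± 0.09 at 60 against 12 weeks (adjusted p = 0.0367) lost the call in 13 of 23 alternatives, with adjusted p up to 0.117, among them the removal of each array in turn but replicate 2 of 12 weeks and replicate 3 of 60 weeks.

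Gadd45a, whose protein binds cell cycle and repair factors after DNA damage, rose by 0.72 ± 0.24 at 12 weeks (adjusted p = 0.0403) and by 0.88 ± 0.24 at 60 weeks (adjusted p = 0.0227) against 0 weeks. Its levels averaged 1.50 ± 0.31 at 0 weeks, 2.22 ± 0.43 at 12 weeks and 2.38 ± 0.20 at 60 weeks (SD, n = 3 each), and the 12 weeks arrays overlapped those of 0 weeks through replicate 2. The call at 12 weeks ended in 10 of 23 alternatives and that at 60 weeks in 5, without replicate 1 or 3 of 0 weeks in both cases (adjusted p = 0.1 and 0.13 at 12 weeks, 0.0681 and 0.0817 at 60 weeks). At 12 weeks it also ended without replicate 1 or 3 of 12 weeks (0.128 and 0.11) or replicate 1 or 2 of 60 weeks (0.0572 and 0.0557), and at 60 weeks without replicate 3 of 60 weeks (0.0712).

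Sfn, which encodes 14-3-3 sigma, a protein that holds mitotic kinases in the cytoplasm, was the one cell cycle gene that fell at both times. Its levels were 0.71, 0.89 and 0.77 at 0 weeks, then 0.21, 0.46 and 0.59 at 12 weeks, then 0.27, 0.37 and 0.20 at 60 weeks. Every treated array lay below every untreated one. Sfn fell by 0.37 on the log2 scale at 12 weeks (SE 0.12, adjusted p = 0.0349) and by 0.51 at 60 weeks (SE 0.12, adjusted p = 0.0118). The 12 weeks call ended with the removal of any array of 0 weeks (adjusted p = 0.0585, 0.12 and 0.0809), or that of replicate 1 of 12 weeks (0.101) or replicate 1 of 60 weeks (0.0572), and the 60 weeks call with that of replicate 2 of 0 weeks (0.0512).

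Psrc1, a microtubule-binding protein of the mitotic spindle, had the lowest adjusted p of the falls at 12 weeks. It stood at 4.35, 4.54 and 4.58 at 0 weeks, then 3.10, 3.73 and 3.25 at 12 weeks, then 4.60, 4.55 and 4.54 at 60 weeks. The 12 weeks arrays lay below all others, and those of 0 and 60 weeks overlapped. Psrc1 fell by 1.13 at 12 against 0 weeks (SE 0.16, adjusted p = 0.000923) and rose by 1.20 ± 0.16, or 2.3-fold, at 60 against 12 weeks (adjusted p = 0.000933), while the change at 60 against 0 weeks was 0.08 ± 0.16 (adjusted p = 0.748). Both calls held in all 23 alternatives.

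Gdf15, a secreted stress cytokine of the TGF-beta family, had levels of 7.66, 7.90 and 7.71 at 0 weeks, then 7.19, 8.19 and 7.41 at 12 weeks, then 8.22, 8.30 and 8.14 at 60 weeks. The arrays of 60 weeks all lay above those of 0 weeks, and at 12 weeks replicate 2 lay about as high as they did while replicates 1 and 3 lay below every untreated array. With all arrays no change was called (-0.16 ± 0.23 at 12 against 0 weeks, 0.46 ± 0.23 at 60 against 0 weeks, with 0.63 ± 0.23 at 60 against 12 weeks; adjusted p = 0.601, 0.159 and 0.0629). All 3 passed without replicate 2 of 12 weeks, at -0.46, 0.46 and 0.92 (adjusted p = 0.0119, 0.00891 and 0.00054).

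Btg2, an antiproliferative factor that works through mRNA deadenylation, had levels of 3.32, 3.05 and 2.93 at 0 weeks, then 3.18, 3.40 and 3.09 at 12 weeks, then 3.24, 2.97 and 3.20 at 60 weeks. Its groups overlapped throughout, and its changes were 0.12 ± 0.14, 0.04 ± 0.14 and -0.09 ± 0.14 in the 3 comparisons (adjusted p = 0.517, 0.869 and 0.664). Ckap2, a spindle protein, changed by -0.24 ± 0.18, -0.26 ± 0.18 and -0.02 ± 0.18 (adjusted p = 0.312, 0.305 and 0.95). The change at 12 against 0 weeks was called once replicate 2 of 12 weeks was left out (-0.44, adjusted p = 0.0259).

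**Figure D3:**
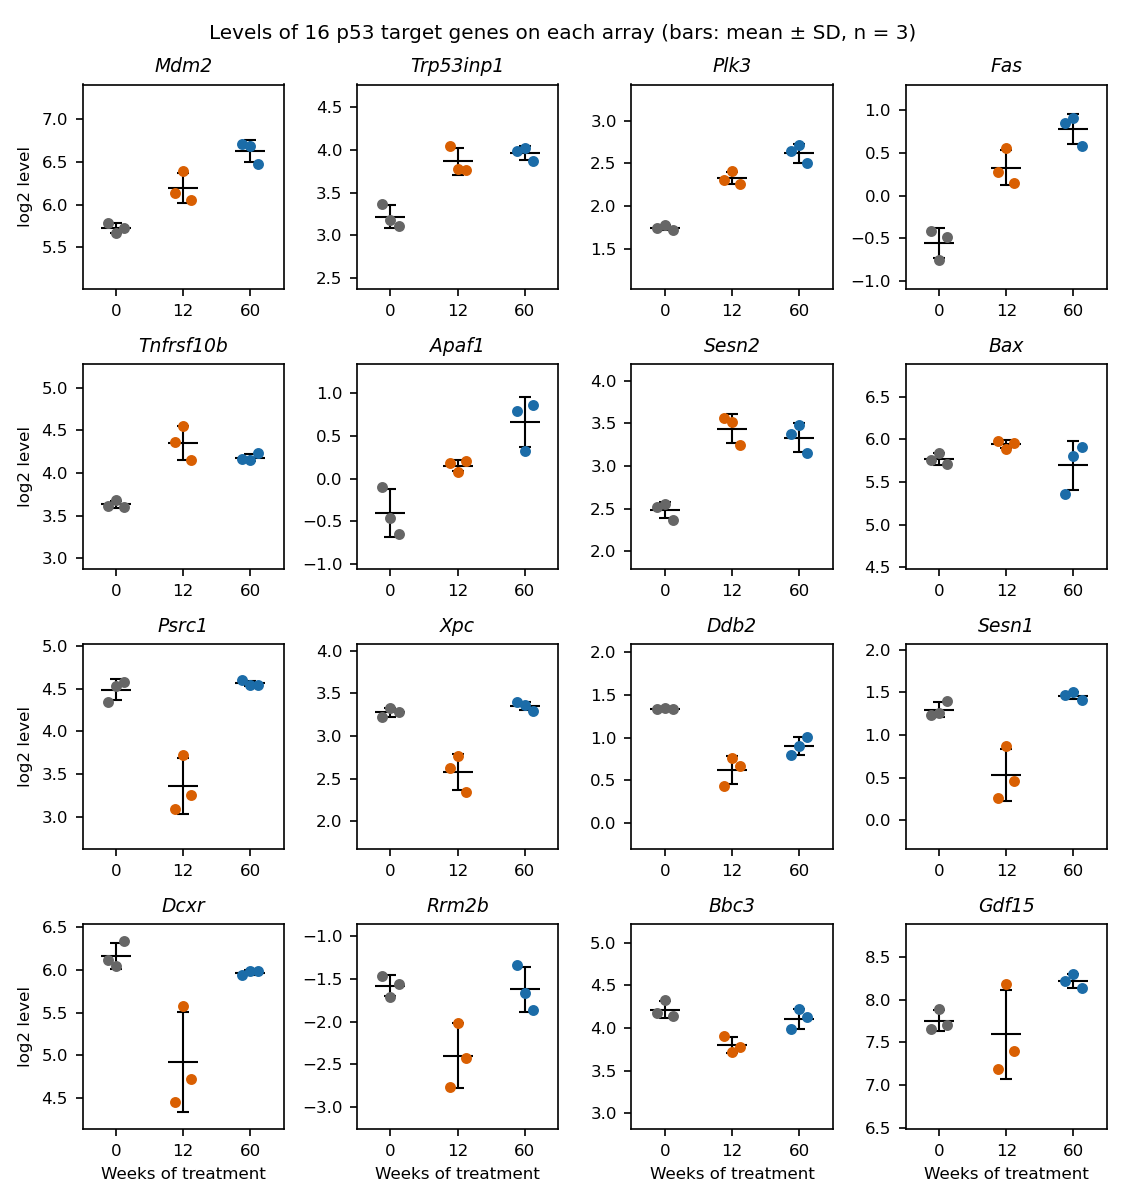
Log2 level of 16 p53 targets on each array at 0 weeks (grey), 12 weeks (orange) and 60 weeks (blue), with bars for the mean ± SD of 3 arrays; all panels span the same range of log2 units. Mdm2, Plk3 and Fas are ordered by time, Psrc1, Xpc, Sesn1, Dcxr and Rrm2b dip at 12 weeks, and in Gdf15, Dcxr and Sesn1 the highest 12 weeks point is replicate 2.

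Both death receptors rose at 12 and at 60 weeks. Fas, the receptor for Fas ligand, had levels of -0.42, -0.75 and -0.48 at 0 weeks, then 0.28, 0.55 and 0.15 at 12 weeks, then 0.85, 0.91 and 0.58 at 60 weeks. Its 3 groups did not overlap. Fas rose by 0.88 ± 0.15 at 12 weeks (adjusted p = 0.00229) and by 1.33 ± 0.15 at 60 weeks (adjusted p = 0.000334) against 0 weeks, and this 2.52-fold change was the largest of the 32 genes at 60 weeks. Both calls held in the 22 alternatives that tested Fas, which the deposited value table did not. The further rise of 0.45 ± 0.15 at 60 against 12 weeks (adjusted p = 0.0426) lost its call in 12 of them, with adjusted p up to 0.679, including the removal of replicate 1 or 3 of 0 weeks, of 12 weeks, or replicate 1 or 2 of 60 weeks (adjusted p = 0.0563, 0.0633, 0.108, 0.137, 0.122 and 0.124).

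Tnfrsf10b is the one mouse gene for a death-inducing receptor of the ligand TRAIL. It stood at 3.62, 3.68 and 3.60 at 0 weeks, then 4.36, 4.55 and 4.15 at 12 weeks, then 4.17, 4.15 and 4.23 at 60 weeks. Treated and untreated arrays did not overlap, and the arrays of 60 and 12 weeks overlapped. Tnfrsf10b rose by 0.72 ± 0.11 at 12 weeks (adjusted p = 0.00152) and by 0.55 ± 0.11 at 60 weeks (adjusted p = 0.00685), and its difference of -0.17 ± 0.11 at 60 against 12 weeks was not called (adjusted p = 0.26). With slide row as a block the 60 weeks value was 0.54 (adjusted p = 0.194).

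Of 9 genes of mitochondrial and other cell death, 2 rose and 2 fell at 12 against 0 weeks, 4 rose and 0 fell at 60 against 0 weeks, and 3 rose at 60 against 12 weeks. In the order of these comparisons 44.4%, 44.4% and 33.3% were called, which lay near the 41.8%, 32.8% and 38.3% of all genes in the first and last. Bax, which forms pores in the outer mitochondrial membrane, had levels of 5.75, 5.85 and 5.71 at 0 weeks, then 5.98, 5.89 and 5.96 at 12 weeks, then 5.37, 5.80 and 5.92 at 60 weeks. The 12 weeks arrays lay just above the untreated ones, and at 60 weeks replicate 1 lay below all others. No change of Bax was called (0.18 ± 0.14 at 12 against 0 weeks, -0.08 ± 0.14 at 60 against 0 weeks, with -0.25 ± 0.14 at 60 against 12 weeks; adjusted p = 0.347, 0.716 and 0.197).

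Bbc3 encodes Puma, a BH3-only activator of Bax. It had levels of 4.18, 4.32 and 4.14 at 0 weeks, then 3.90, 3.72 and 3.78 at 12 weeks, then 3.98, 4.22 and 4.13 at 60 weeks. The 12 weeks arrays lay below all others. Bbc3 fell by 0.41 at 12 against 0 weeks (SE 0.10, adjusted p = 0.0133) and rose by 0.31 ± 0.10 at 60 against 12 weeks (adjusted p = 0.0437). The fall lost its call without replicate 2 of 0 weeks (adjusted p = 0.0582) and the rise in 18 of 23 alternatives, among them the removal of any single array (adjusted p = 0.0512 to 0.126).

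Pmaip1, the BH3-only protein Noxa, stood at 5.29, 5.47 and 5.38 at 0 weeks, then 5.56, 5.69 and 5.59 at 12 weeks, then 5.82, 5.99 and 5.63 at 60 weeks. All treated arrays lay above the untreated ones, but only the change at 60 weeks was called, at 0.44 ± 0.11 (adjusted p = 0.019), against 0.24 ± 0.11 at 12 weeks (adjusted p = 0.125). The difference between 60 and 12 weeks was 0.20 ± 0.11 (adjusted p = 0.197). Without replicate 1 or 3 of 0 weeks or replicate 1 or 2 of 60 weeks the 60 weeks call ended (adjusted p = 0.0695, 0.0589, 0.0616 and 0.057).

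Apaf1, the scaffold of the apoptosome that activates caspase-9, had levels of -0.10, -0.46 and -0.65 at 0 weeks, then 0.18, 0.08 and 0.20 at 12 weeks, then 0.79, 0.32 and 0.87 at 60 weeks. The 3 groups did not overlap. Apaf1 rose by 0.55 ± 0.18 at 12 weeks (adjusted p = 0.0385) and by 1.06 ± 0.18, or 2.09-fold, at 60 weeks (adjusted p = 0.00284) against 0 weeks, and the step from 12 to 60 weeks, 0.51 ± 0.18, was not called (adjusted p = 0.0551). The 12 weeks call ended without replicate 2 or 3 of 0 weeks (adjusted p = 0.108 and 0.127), replicate 1 or 3 of 12 weeks (0.093 and 0.0977) or replicate 1 of 60 weeks (0.0536). The step from 12 to 60 weeks passed without replicate 1 of 0 weeks (0.043) or replicate 2 of 60 weeks (0.0219).

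Zmat3, a zinc-finger RNA-binding protein, had levels of 4.44, 4.26 and 4.07 at 0 weeks, then 4.62, 4.73 and 4.50 at 12 weeks, then 4.64, 4.68 and 4.75 at 60 weeks. All treated arrays lay above the untreated ones, and those of 12 and 60 weeks overlapped. Zmat3 rose by 0.36 ± 0.12 at 12 weeks (adjusted p = 0.0366) and by 0.44 ± 0.12 at 60 weeks (adjusted p = 0.0218), calls that ended in 11 and 7 of 23 alternatives. Without replicate 2 of 12 weeks the first was 0.30 (adjusted p = 0.066). Removal of replicate 2 or 3 of 0 weeks or of replicate 1 or 2 of 60 weeks ended both (adjusted p = 0.0942, 0.123, 0.0577 and 0.0507 at 12 weeks, and 0.0659, 0.077, 0.0534 and 0.0532 at 60 weeks), as did removal of replicate 1 of 12 weeks for the first (0.0841) and of replicate 3 of 60 weeks for the second (0.0609).

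Aen, a nuclease that takes part in DNA breakdown during apoptosis, stood at 6.49, 6.56 and 6.62 at 0 weeks, then 6.10, 6.33 and 6.10 at 12 weeks, then 6.51, 6.44 and 6.50 at 60 weeks. It was lowest in the 12 weeks arrays, with replicate 2 nearest to the others. Aen fell by 0.38 at 12 against 0 weeks (SE 0.10, adjusted p = 0.0139) and rose by 0.31 ± 0.10 at 60 against 12 weeks (adjusted p = 0.0356). The fall ended without replicate 3 of 0 weeks or replicate 3 of 12 weeks (adjusted p = 0.0539 and 0.0519), and the rise in 17 of 23 alternatives, among them the removal of any single array except replicate 2 of 12 weeks (adjusted p = 0.0528 to 0.116).

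Perp, a membrane protein of desmosomes and apoptosis, rose at 60 weeks, by 0.41 ± 0.11 against 0 weeks (adjusted p = 0.0239) and 0.36 ± 0.11 against 12 weeks (adjusted p = 0.0329). Its levels averaged 7.33 ± 0.07 at 0 weeks, 7.37 ± 0.19 at 12 weeks and 7.74 ± 0.02 at 60 weeks. These calls ended in 9 and 14 of 23 alternatives, among them the removal of any single array of 0 or 60 weeks for the comparison with 0 weeks (adjusted p = 0.056 to 0.0836), and of any array except replicate 1 of 0 weeks and replicate 2 of 12 weeks for the comparison with 12 weeks (0.0515 to 0.107). Ei24, a membrane protein of the endoplasmic reticulum, and Phlda3, which competes with the kinase Akt for membrane lipids, were called in no comparison, with changes of 0.13, 0.17 and 0.04 and of -0.10, 0.16 and 0.25 (adjusted p = 0.122 to 0.859). Without replicate 2 of 12 weeks Phlda3 passed at 60 against 12 weeks (0.36, adjusted p = 0.0179).

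In DNA repair and nucleotide supply, 3 of 5 genes fell and 0 rose at 12 against 0 weeks, with a median change of -0.70, and 4 of 5 rose at 60 against 12 weeks, with a median of 0.78. At 60 against 0 weeks 1 rose, 1 fell and the median was 0.07. With only 5 genes, 60.0%, 40.0% and 80.0% were called at 12 against 0, 60 against 0 and 60 against 12 weeks, beside 41.8%, 32.8% and 38.3% of all genes. Xpc, which recognises helix-distorting lesions in nucleotide excision repair, had levels of 3.22, 3.33 and 3.28 at 0 weeks, then 2.62, 2.77 and 2.34 at 12 weeks, then 3.40, 3.36 and 3.30 at 60 weeks. Only the 12 weeks arrays stood apart, below the rest. Xpc fell by 0.70 at 12 against 0 weeks (SE 0.12, adjusted p = 0.00216) and rose by 0.78 ± 0.12 at 60 against 12 weeks (adjusted p = 0.00173), while 60 and 0 weeks differed by 0.07 ± 0.12 (adjusted p = 0.664). Both calls held in all 23 alternatives.

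Ddb2, the partner of Xpc in finding ultraviolet damage, stood at 1.33, 1.35 and 1.34 at 0 weeks, then 0.44, 0.76 and 0.67 at 12 weeks, then 0.80, 0.91 and 1.01 at 60 weeks. Its groups did not overlap, with 12 weeks lowest and 60 weeks between. Ddb2 fell by 0.72 at 12 weeks (SE 0.11, adjusted p = 0.00132), a call that held in all 23 alternatives, and by 0.44 at 60 weeks (SE 0.11, adjusted p = 0.0162) against 0 weeks. The difference of 0.28 ± 0.11 at 60 against 12 weeks was not called (adjusted p = 0.0708) and passed without replicate 2 of 12 weeks (0.35, adjusted p = 0.0263). The 60 weeks call ended without replicate 2 or 3 of 0 weeks or replicate 1 of 60 weeks (adjusted p = 0.0559, 0.052 and 0.0661).

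Rrm2b, the p53-inducible small subunit of ribonucleotide reductase, which makes deoxynucleotides, had levels of -1.47, -1.71 and -1.56 at 0 weeks, then -2.77, -2.01 and -2.42 at 12 weeks, then -1.34, -1.67 and -1.86 at 60 weeks. It was lowest at 12 weeks on every array, and 0 and 60 weeks overlapped. Rrm2b fell by 0.82 at 12 against 0 weeks (SE 0.21, adjusted p = 0.0132) and rose by 0.78 ± 0.21 at 60 against 12 weeks (adjusted p = 0.0187). The rise lost its call without replicate 1 or 3 of 12 weeks or replicate 1 of 60 weeks (adjusted p = 0.0543, 0.0556 and 0.0672).

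Ercc5 encodes the nuclease XPG, which cuts on the 3′ side of a lesion. Its levels were 2.63, 2.59 and 2.51 at 0 weeks, then 2.04, 2.73 and 1.98 at 12 weeks, then 3.13, 3.03 and 3.04 at 60 weeks. The 60 weeks arrays were the highest, and at 12 weeks replicate 2 lay above every untreated array while replicates 1 and 3 lay below them. Ercc5 rose by 0.82 ± 0.19 at 60 against 12 weeks (adjusted p = 0.0105), and the changes at 12 and at 60 against 0 weeks were -0.33 ± 0.19 (adjusted p = 0.189) and 0.49 ± 0.19 (adjusted p = 0.0785). Without replicate 2 of 12 weeks these passed too, at -0.57 (adjusted p = 0.0011) and 0.49 (adjusted p = 0.00185).

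Polk, a polymerase that copies past damaged bases, stood at 1.78, 1.66 and 1.55 at 0 weeks, then 1.41, 1.67 and 1.51 at 12 weeks, then 2.09, 2.04 and 1.88 at 60 weeks. The 60 weeks arrays lay above the rest, and 0 and 12 weeks overlapped. Polk rose by 0.47 ± 0.11 at 60 against 12 weeks (adjusted p = 0.0119), a call that held in all 23 alternatives. Its rise of 0.34 ± 0.11 at 60 against 0 weeks (adjusted p = 0.0466) lost the call in 14 of them, among them the removal of any array of 0 weeks (adjusted p = 0.0562, 0.12 and 0.152), of replicate 3 of 12 weeks (0.0662) and of replicate 1 or 2 of 60 weeks (0.148 and 0.111).

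Among the genes of metabolism, redox and ribosome, the related stress proteins Sesn1 and Sesn2, which restrain the growth kinase mTORC1 and limit peroxides, moved in opposite directions at 12 weeks. Sesn1 had levels of 1.23, 1.26 and 1.40 at 0 weeks, then 0.27, 0.87 and 0.46 at 12 weeks, then 1.47, 1.50 and 1.42 at 60 weeks. Sesn2 had levels of 2.52, 2.55 and 2.37 at 0 weeks, then 3.56, 3.51 and 3.25 at 12 weeks, then 3.38, 3.48 and 3.15 at 60 weeks. At 12 weeks every array lay below the untreated ones for Sesn1 and above them for Sesn2, and at 60 weeks every array lay above them for both genes. Sesn1 fell by 0.77 at 12 against 0 weeks (SE 0.15, adjusted p = 0.00454) and rose by 0.93 ± 0.15 at 60 against 12 weeks (adjusted p = 0.00232), with 0.16 ± 0.15 at 60 against 0 weeks (adjusted p = 0.435). Sesn2 rose by 0.96 ± 0.13, or 1.94-fold, at 12 weeks (adjusted p = 0.000685) and by 0.85 ± 0.13 at 60 weeks (adjusted p = 0.00147) against 0 weeks, and 60 and 12 weeks differed by -0.11 ± 0.13 (adjusted p = 0.547). The calls of Sesn2 held in all 23 alternatives and those of Sesn1 in the 22 that tested it, the deposited value table being the exception.

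Dcxr, a reductase of sugars and dicarbonyls, stood at 6.12, 6.05 and 6.34 at 0 weeks, then 4.46, 5.58 and 4.73 at 12 weeks, then 5.94, 5.99 and 5.99 at 60 weeks. It was lowest on the 12 weeks arrays and there spread most of the 32 genes (SD 0.59), with replicate 2 nearest to the other groups. Dcxr fell by 1.25, or 2.38-fold, at 12 against 0 weeks (SE 0.26, adjusted p = 0.00549) and rose by 1.05 ± 0.26 at 60 against 12 weeks (adjusted p = 0.0133). The difference at 60 against 0 weeks was -0.20 ± 0.26 (adjusted p = 0.588). Fdxr, the mitochondrial ferredoxin reductase, and Rps27l, a ribosomal protein paralogue, were called in no comparison, with changes of 0.05, 0.08 and 0.03 for Fdxr (adjusted p = 0.739 to 0.892) and -0.08, 0.15 and 0.23 for Rps27l (adjusted p = 0.139 to 0.601). Rps27l passed at 60 against 12 weeks without replicate 2 of 12 weeks (0.33, adjusted p = 0.0168).

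Replicate 2 of 12 weeks sat nearer to 0 weeks than replicates 1 and 3 for 7 of the 9 genes that fell at 12 weeks and for 2 of the 9 that rose. The median SD of the 32 genes was 0.09 at 0 weeks, 0.19 at 12 weeks and 0.11 at 60 weeks, beside 0.11, 0.21 and 0.15 over all genes. The arrays also lay in different rows of the slides. The first row of slide 1 held the 3 arrays of 0 weeks and replicate 1 of 12 weeks, the second row held replicates 2 and 3 of 12 weeks and replicates 1 and 2 of 60 weeks, and replicate 3 of 60 weeks was scanned on another slide. With the row as a block that lone array adds nothing to any change. The change at 12 against 0 weeks then rests on the 1 array of 12 weeks in the first row. The change at 60 against 0 weeks is that step plus the step from 12 to 60 weeks within the second row. Within the first row, the array of 12 weeks differed from the mean of 0 weeks in the called direction for 18 of the 18 called genes. Within the second row the 60 weeks arrays lay above those of 12 weeks for 13 of the 13. The genes were called on these same arrays, so both counts were all but fixed in advance and are no test of the row. No row holds both 60 and 0 weeks, and with the row as a block 13, 6 and 5 genes were called at 12 against 0, 60 against 0 and 60 against 12 weeks, where 31.9%, 9.92% and 24.7% of all genes were. The 6 at 60 against 0 weeks were Trp53inp1, Plk3, Sfn, Fas, Ddb2 and Sesn2, and the 5 at 60 against 12 weeks were Psrc1, Xpc, Polk, Rrm2b and Sesn1.

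Genes of some chromosomes stood higher as a whole, and several of the p53 targets that rose lie on them. The median change of all tested genes of chromosome 4, which holds Trp53inp1, Plk3, Sfn and Sesn2, was 0.26 at 12 against 0 weeks and 0.21 at 60 against 0 weeks. For chromosome 14, which holds Tnfrsf10b, it was 0.20 and 0.13. Chromosome 10, with Mdm2, Apaf1, Perp and Sesn1, and chromosome 19, with Fas, had medians of 0.28 and 0.37 at 60 against 0 weeks and of 0.34 and 0.44 at 60 against 12 weeks. After each array's values were centred on the median of the gene's chromosome, 15, 13 and 12 of the 32 were called in the 3 comparisons. The shares of all genes called were 40.1%, 28.0% and 37.5%. Of the calls made without centring, 14 of the 18, 12 of the 14 and 10 of the 13 were kept.

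On these chromosomes several calls ended. At 60 against 12 weeks, Mdm2 changed by 0.15 (adjusted p = 0.447), Fas by 0.09 (adjusted p = 0.679) and Perp by 0.08 (adjusted p = 0.669) relative to their chromosomes, and none of these was called. Against 0 weeks at 60 weeks, Mdm2 still rose by 0.69 (adjusted p = 0.00843) and Fas by 0.91 (adjusted p = 0.00394), and Perp changed by 0.20 (adjusted p = 0.321). At 12 weeks, Plk3 and Trp53inp1 changed by 0.23 (adjusted p = 0.152) and 0.30 (adjusted p = 0.103), and at 60 weeks Plk3 rose by 0.67. Tnfrsf10b rose by 0.40 at 12 weeks (adjusted p = 0.0461) and lay at 0.41 at 60 weeks (adjusted p = 0.0563). Genes of other chromosomes moved too: at 12 weeks the calls of Gadd45a on chromosome 6 (0.71, adjusted p = 0.0554) and Zmat3 on chromosome 3 (0.23, adjusted p = 0.121) ended, and Pmaip1 passed (0.37, adjusted p = 0.0383).

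**Figure D4:**
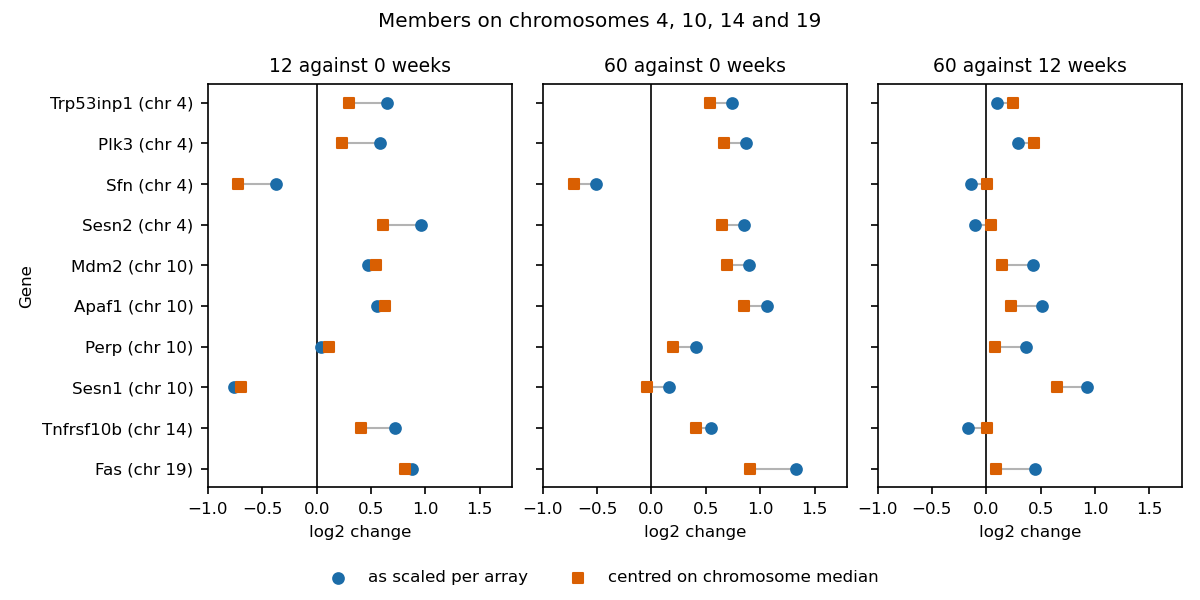
Log2 change of the 10 p53 targets on chromosomes 4, 10, 14 and 19 in each comparison, as scaled per array (blue circles) and after centring on the median of the chromosome (orange squares). At 60 against 12 weeks the squares of Mdm2, Fas and Perp lie at 0.15 or less.

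Genes that act on p53 itself, from a list of other genes of the pathway, moved in both directions. Of 24 genes of p53 and its regulators, 6 were called at 12 against 0 weeks (3 higher, 3 lower), 6 at 60 against 0 weeks (4 higher, 2 lower) and 5 at 60 against 12 weeks (4 higher, 1 lower), or 25.0%, 25.0% and 20.8% where 41.8%, 32.8% and 38.3% of all genes were called. Trp53 had levels of -0.15, -0.30 and -0.45 at 0 weeks, then 0.20, -0.01 and -0.04 at 12 weeks, then -0.28, -0.34 and -0.09 at 60 weeks. Its 12 weeks arrays lay above all others. Trp53 rose by 0.35 ± 0.12 at 12 against 0 weeks (adjusted p = 0.0485), just under the threshold. It changed by 0.06 ± 0.12 at 60 against 0 weeks (adjusted p = 0.722) and by -0.28 ± 0.12 at 60 against 12 weeks (adjusted p = 0.0964). By limma's F test over the 3 groups Trp53 did not pass (adjusted p = 0.0707). Mdm4, which holds p53 inactive together with Mdm2, fell by 0.47 at 12 weeks (SE 0.12, adjusted p = 0.0164) and rose by 0.81 ± 0.12 at 60 weeks (adjusted p = 0.0017) against 0 weeks, and by 1.28 ± 0.12 at 60 against 12 weeks (adjusted p = 0.000194). Cdkn2a, whose Arf product blocks Mdm2, was at background on all arrays of 0 and 60 weeks; it was at least 152-fold higher at 12 against 0 weeks and at least 155-fold lower at 60 against 12 weeks. Kat5, an acetyltransferase of p53, rose by 0.62 ± 0.09 at 60 against 0 weeks (adjusted p = 0.00134). It lies on chromosome 19, where the median change of all tested genes was 0.37 in that comparison. Rchy1, a ubiquitin ligase for p53, rose by 0.51 ± 0.10 at 12 weeks (adjusted p = 0.00506) and by 0.40 ± 0.10 at 60 weeks (adjusted p = 0.0184) against 0 weeks. Bard1, the partner of Brca1, fell by 0.77 at 12 weeks and by 0.97 at 60 weeks against 0 weeks (adjusted p = 0.00374 and 0.00149). Chek1, a checkpoint kinase, fell by 0.56 at 60 against 0 weeks (adjusted p = 0.0425). Chek1 did not pass limma's F test over the 3 groups (adjusted p = 0.0625).

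Of 29 other textbook p53 targets outside the 32, 12 were called at 12 against 0 weeks (6 higher, 6 lower), 13 at 60 against 0 weeks (10 higher, 3 lower) and 12 at 60 against 12 weeks (10 higher, 2 lower). These were 41.4%, 44.8% and 41.4% of the list, where 41.8%, 32.8% and 38.3% of all genes were called, so that the first and last lay near the share of all genes. Cdkn1a, the cyclin-dependent kinase inhibitor p21 and a standard readout of p53, was not called, with -0.21 ± 0.16 at 12 against 0 weeks, -0.09 ± 0.16 at 60 against 0 weeks, with 0.12 ± 0.16 at 60 against 12 weeks (adjusted p = 0.3, 0.696 and 0.56). The cytokine gene Lif rose by 1.08 ± 0.14 at 12 weeks and 1.41 ± 0.14 at 60 weeks against 0 weeks, and Cgref1, a calcium-binding growth regulator, by 1.73 ± 0.19 and 1.65 ± 0.19 in the same comparisons (adjusted p = 0.000624, 0.000182, 0.000214 and 0.000343). Gls2, a mitochondrial glutaminase, fell by 2.69 at 12 weeks and by 1.22 at 60 weeks (SE 0.14 each, adjusted p = 4.82e-06 and 0.000404) and rose by 1.47 ± 0.14 at 60 against 12 weeks (adjusted p = 0.000187). Thbs1, which encodes the angiogenesis inhibitor thrombospondin 1, fell by 1.62 at 12 weeks and by 1.30 at 60 weeks (SE 0.17 each, adjusted p = 0.000181 and 0.000725).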

How the data were processed

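Spots were quantified by the authors in Agilent Feature Extraction, version 10.7.3.1, per the file headers (protocol GE1_107_Sep09, array design on build mm9:NCBI37:Jul2007). Each deposited scanner file gives a background-subtracted intensity per spot, with no scaling of one array to another. A deposited value table gives a signal for 42530 probes, which equals the intensity divided by about the 75th percentile of its array (ratio 1.0 to 1.01); it is linear and not centred, its direction is that of the intensity, and its column medians were 0.0668, 0.0719 and 0.0705 at 0 weeks, then 0.0619, 0.0681 and 0.0733 at 12 weeks, then 0.0673, 0.0695 and 0.0582 at 60 weeks. It served as an alternative.

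From the scanner files, outlier spots were left out (117 to 163 of 59305), spots of a probe averaged, and log2 values taken relative to the 75th percentile. Of the 55681 probes, 27235 had 1 gene symbol by RefSeq accession (GRCm38.p6), 28446 had none and 0 had several. Probes well above background on at least 2 of 3 arrays of a group were kept, and the brightest probe stood for a gene. A model of group means was fitted to the 9 arrays in limma 3.58.1 and R 4.3.3, after tests on simulated data. The number of arrays limits the precision.

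Values on every array are given for members called in a comparison whose groups do not overlap (up to 20, by smallest adjusted p) and in any case for Mdm2, Ccng1, Bax, Bbc3, Pmaip1, Fas, Gdf15 and Btg2. Of the genes outside the 32, the 5 with the smallest adjusted p of each list are named, and Trp53, Mdm4, Cdkn2a, Chek1 and Cdkn1a in any case; some genes are not reported here. A change written as at least N-fold sets the mean of the bright group against, on each array of the dim group, the higher of the lowest signal well above background and the probe's own. Members, lists and rules were chosen with earlier results of these data known. The normexp alternative (offset 50) used the median spot signal, since no mean signal was given. Same-numbered replicates deviated from their group means with correlations of -0.08 to 0.20, so the numbers were not taken to pair samples. No other sequences or genomes were used here.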

Additional observations from a re-analysis of the deposited data

How the results depend on the processing

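Each result was recomputed under 23 alternatives: 3 of background or scaling, 2 filters on dim probes, the deposited table, 2 probe rules, the 2 groups alone, replicate, slide and row blocks, chromosome centring, array weights and 9 removals of an array. Of the calls, 9 of 18 at 12 against 0 weeks (Psrc1, Fas, Tnfrsf10b, Xpc, Ddb2, Rrm2b, Sesn1, Sesn2 and Dcxr), 4 of 14 at 60 against 0 weeks (Trp53inp1, Plk3, Fas and Sesn2) and 4 of 13 at 60 against 12 weeks (Psrc1, Xpc, Polk and Sesn1) were made in every alternative that tested the gene, which for Fas and Sesn1 leaves out the deposited table. With slide row as a block, 6 of the 32 were called at 60 against 0 weeks and 5 at 60 against 12 weeks, where 9.92% and 24.7% of all genes were. By the F test 14 of the 32 passed with this block, and the share of all genes passing was not counted. At 60 against 12 weeks 8 were called with no filter on dim probes, which tests more genes, and 6 with only the 2 groups compared, which uses fewer arrays. In these 2 settings 21.4% and 26.7% of all genes were called. Quantile normalization moved the medians at 12 against 0 and 60 against 12 weeks to 0.15 and 0.12, and turned Rps27l at 12 against 0 weeks to 0.30 (adjusted p = 0.0134); the cause was not tested.

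With 1 array left out, 13 to 20 genes were called at 12 against 0 weeks, 8 to 16 at 60 against 0 weeks and 6 to 16 at 60 against 12 weeks. The share of all genes called ran from 30.1% to 52.8%, 22.8% to 42.9% and 25.8% to 50.4%. By the F test 16 to 26 of the 32 passed, and the share of all genes passing in these fits was not counted. With all 9 arrays 22 of the 32 passed, where 56.7% of all genes did. The medians of the 32 in the 3 comparisons ran from -0.11 to 0.04, 0.15 to 0.20 and 0.25 to 0.33 with 1 array left out. At 60 against 0 weeks, 9 were called without replicate 2 of 0 weeks, 8 without replicate 3 of 0 weeks and 9 without replicate 1 of 60 weeks. In these fits 22.8%, 22.9% and 23.0% of all genes were called. At 60 against 12 weeks, 8 were called without replicate 3 of 0 weeks or replicate 2 of 60 weeks, where 34.3% and 28.2% of all genes were. There were 6 without replicate 1 or 3 of 12 weeks or replicate 1 of 60 weeks, where 28.3%, 25.8% and 26.4% of all genes were called. With the replicate number as a block (the replicate block), 16, 13 and 11 genes were called in the 3 comparisons, where 41.3%, 31.7% and 37.4% of all genes were. Not every array correlated best with its own number. Array weights, which gave replicate 2 of 12 weeks 0.158, made 21, 19 and 18 calls, where 58.6%, 54.2% and 57.3% of all genes were called. The deposited table tested 29 of the 32 and called 15, 12 and 11, where 40.8%, 31.8% and 36.6% of all genes were called. The slide block repeats the fit without replicate 3 of 60 weeks, the lone array of its slide, and the row block leaves that array without weight too.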

Other observations

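Of the 32 genes, 4 had a second probe, of which 3 were above background. For Aen the second probe changed by -0.46 at 12 against 0 weeks (limma, adjusted p over probes = 0.00651) and by 0.27 at 60 against 12 weeks (0.06), beside -0.38 (0.0152) and 0.31 (0.0381) for the brighter one. For Polk it changed by 0.42 at 60 against 0 weeks (0.157) and 0.73 at 60 against 12 weeks (0.0243), beside 0.34 (0.0496) and 0.47 (0.0126). The second probe of Trp53inp1 changed by 0.81 at 60 against 12 weeks (0.054), beside 0.10 (0.546) for the brighter one.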
